A study of Mus musculus with 120 samples.

Results

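The genes described here are 33 genes of mitosis, from cyclins and mitotic kinases to the proteins of the kinetochore, the spindle and the cleavage furrow. They were taken as a list of names, by a rule that uses no measured value, although the list was drawn up with earlier results of these data known. Each was read from the probe set of highest mean among the probe sets annotated to that gene alone. On the Mouse 430_2 array 32 of the 33 were measured, among 18194 genes with a probe set of their own, and on the Mouse 430A_2 array 30 of the 33 were measured, among 12394. Cyclin B1 (Ccnb1) is the gene without such a probe set on either array, and Kif20b and Cdca8 have none on the smaller array.

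The arrays came from mouse embryonic stem (mES) cells, as clones of the line EB3. In each clone the coding sequence of a gene of human chromosome 21 (HSA21), in most cases the mouse ortholog, sits with a 3xFLAG tag in the ROSA26 locus and is transcribed once tetracycline (Tc) is withdrawn (Tet-off). The 20 induced genes were Aire, Bach1, Dscr1, Dyrk1a, Erg, Ets2, Gabpa, Hunk, Nrip1, Olig1, Olig2, Pdxk, Pfkl, Pknox1, RIKEN-1810007M14, Ripk4, Runx1, Sim2, Snf1lk and Zfp295, and the sequences of Dyrk1a, Snf1lk and Zfp295 were human. For each gene 3 clones were profiled in medium with LIF and Tc (uninduced) and after growth without Tc (induced), which gives 6 arrays per experiment. The labels give 24 hours of induction for 15 genes, 39 hours for Hunk, Ripk4 and Sim2, and 48 hours for Aire and Pdxk. For Pfkl, labelled 24 hours, the study's own list of experiments gives a later time, so the tests by time were also run with Pfkl among the later experiments and without it. All clones of all groups carry the Tet-off locus and were grown undifferentiated. Cells to be induced were washed and re-plated, and arrays of cells without a transgene after withdrawal of Tc were not analysed here, so the induced gene, the loss of Tc and the re-plating cannot be told apart within an experiment.

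Mitosis is driven by Cdk1 bound to A and B cyclins. Aurora, Polo and other kinases build the spindle, the spindle checkpoint holds the anaphase promoting complex (APC/C) back until all kinetochores are attached, and the central spindle then places the cleavage furrow. The mRNAs of these genes rise in G2 and M phase and fall in G1, so that their level in a bulk sample follows the share of cycling cells as well as the transcript level per cell, and these cannot be told apart on an array. mES cells cycle rapidly with a short G1 phase. Many promoters of late cell cycle genes carry a cell cycle homology region (CHR), with the core TTTGAA, near CCAAT boxes, which bind the factor NF-Y.

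The promoters of Ccnb2, Cdc20, Mki67 and Bub1 are shown because the calls described below turn on these genes. They run from 250 bases before to 50 bases after the start site (RefSeq, GRCm38.p6), are written 5′ to 3′ on the strand of the gene, and have each TTTGAA and CCAAT, on either strand, in capitals.
Ccnb2, chr9:70421505-70421804, minus strand: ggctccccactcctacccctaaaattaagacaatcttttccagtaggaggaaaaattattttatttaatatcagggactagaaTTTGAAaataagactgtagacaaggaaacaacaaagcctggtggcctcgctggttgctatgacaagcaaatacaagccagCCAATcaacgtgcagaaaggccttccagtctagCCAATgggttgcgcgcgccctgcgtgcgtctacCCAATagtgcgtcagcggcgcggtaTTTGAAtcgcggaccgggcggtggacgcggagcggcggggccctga
Cdc20, chr4:118437294-118437593, minus strand: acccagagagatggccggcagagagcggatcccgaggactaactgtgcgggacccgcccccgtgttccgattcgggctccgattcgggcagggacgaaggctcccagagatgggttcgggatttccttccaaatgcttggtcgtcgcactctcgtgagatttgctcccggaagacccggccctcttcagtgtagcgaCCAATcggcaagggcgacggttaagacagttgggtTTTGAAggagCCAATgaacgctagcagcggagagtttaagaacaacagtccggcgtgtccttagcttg
Mki67, chr7:135716330-135716629, minus strand: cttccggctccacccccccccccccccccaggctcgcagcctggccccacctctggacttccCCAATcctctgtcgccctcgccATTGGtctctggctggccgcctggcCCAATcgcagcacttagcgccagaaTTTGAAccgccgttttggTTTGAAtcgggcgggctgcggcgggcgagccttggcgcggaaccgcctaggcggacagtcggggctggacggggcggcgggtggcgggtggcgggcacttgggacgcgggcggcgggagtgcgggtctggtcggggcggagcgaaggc
Bub1, chr2:127831810-127832109, minus strand: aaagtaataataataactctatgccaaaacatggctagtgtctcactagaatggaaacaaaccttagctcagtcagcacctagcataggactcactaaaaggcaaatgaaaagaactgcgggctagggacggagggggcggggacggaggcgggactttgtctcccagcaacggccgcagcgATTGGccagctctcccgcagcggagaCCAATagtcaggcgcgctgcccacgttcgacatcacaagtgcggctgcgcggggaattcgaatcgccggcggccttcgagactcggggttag
The Ccnb2 promoter holds TTTGAA 2 times and CCAAT 3 times, that of Cdc20 TTTGAA once and CCAAT 2 times, that of Mki67 TTTGAA 2 times and CCAAT 3 times, and that of Bub1 only CCAAT, 2 times. A RefSeq promoter was at hand for 28 of the 33 genes, and 21 of these (75%) hold TTTGAA in either direction, against 17.9% of all 32851 promoters of the same length. CCAAT was found in 21 of the 28 (75%) against 37.4% of all promoters, and both motifs in 17 (60.7%) against 6.95%. Birc5, Mad2l1 and Nusap1 hold neither in this window. The share with TTTGAA was 52.5% in 59 promoters of other mitosis genes and 16.1% in 31 promoters of DNA replication genes.

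Levels are log2 intensities, so that a difference of 1 is a doubling. In uninduced cells the chosen probe sets of the mitosis genes were bright. In each of the 19 experiments of the larger array the 32 genes lay above the third quartile of all probe sets, which was between 7.28 and 7.80 there, and 27 of 30 did so in the Runx1 experiment. The 8 markers of mES cells (among them Pou5f1, Nanog and Sox2) were above that quartile in every experiment too. These ranks are set in part by the rule, which takes the brightest probe set of a gene, while the quartile is over all probe sets. A probe set of Kif20b that was not chosen had a mean of 2.65. Of 47 probe sets that match an induced gene, 2 of Runx1 rose in the Runx1 experiment (by 1.13 and 1.39) and no other passed the test, and a probe set outside the open reading frame cannot see the transgene. A probe set of Rcan1, the gene labelled Dscr1, was higher by 2.05, 1.70 and 2.66 in the Dscr1 clones (mean 2.14, adjusted p 0.486). One of Bach1 was lower by 0.46, 0.37 and 0.71 in the Bach1 clones (mean -0.51, adjusted p 0.986). The 3 probe sets of Pknox1 went against the labels: with changes of -1.21, -1.47 and -1.45 they were lower in each of the 3 clones labelled induced. None of the 3 passed (adjusted p from 0.771 to 0.999993). A probe set of Nrip1 was lower too in its own experiment (-0.59, adjusted p 0.0969). Whether the Pknox1 labels are swapped was not tested. The results over all experiments were therefore also taken with the sign of the Pknox1 experiment turned and without it.

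The first question was which of the 20 inductions moved the mitosis genes. Over 638 differences of a mitosis gene in an experiment, 4 had an adjusted p under 0.05 in limma, over all probe sets of the array, and all 4 were rises: Mki67 and Cdc20 with Erg, and Mki67 and Ccnb2 with Runx1. Of the 638 differences 24 were larger than 0.25 in size, 2 were larger than 0.5 and none was larger than 1. All 638 confidence intervals (95%) lay within 1 in either direction, and 616 lay within 0.5. The shares of all probe sets given below include dim ones, while the genes were read from their brightest probe sets, so the 2 differ in brightness. With probe sets below the median level left out, the share was 25.2% with Erg and 10.7% with Aire, above the 12% and 3.93% of all. With Nrip1 it was lower, 0.00443% in place of 0.135%.

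**Figure D1:**
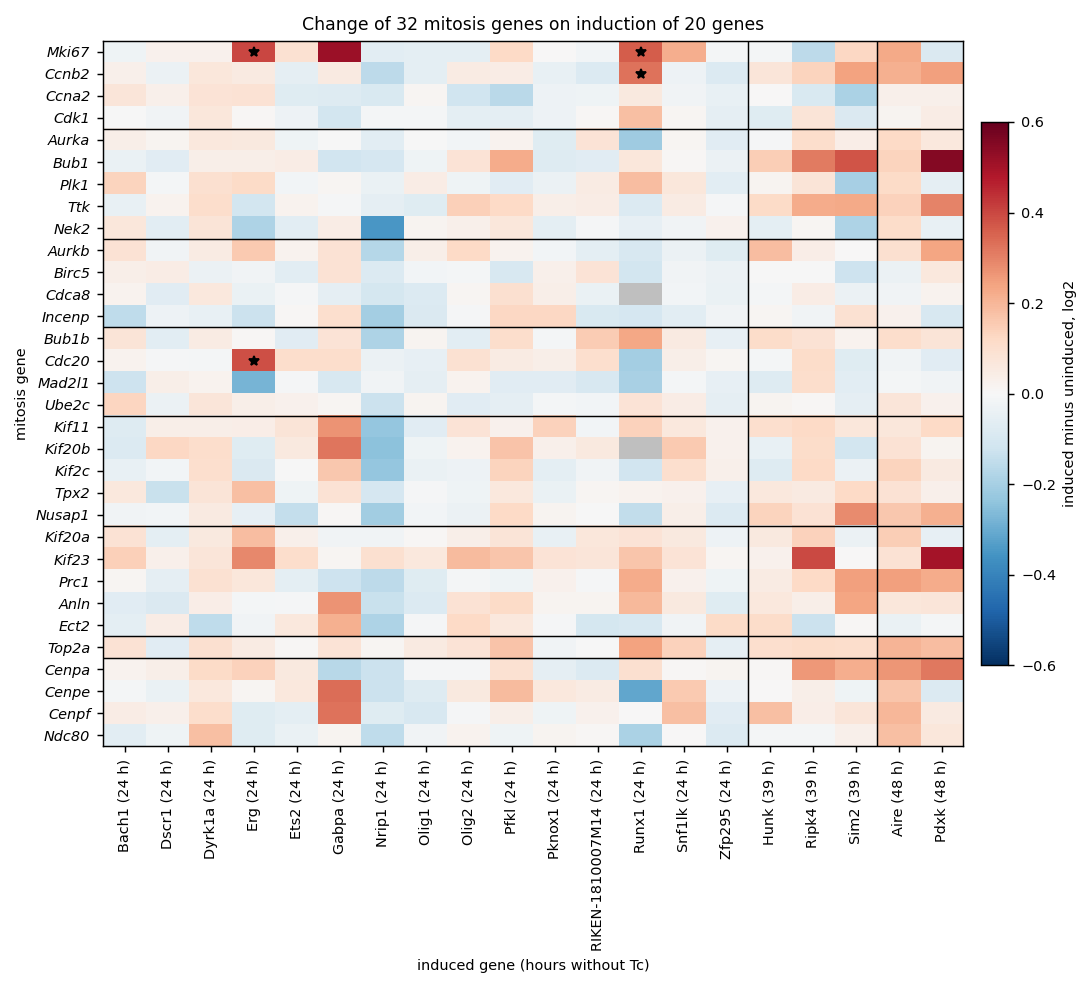
Induced minus uninduced log2 intensity (colour) of 32 mitosis genes (rows, grouped by role) in 20 experiments (columns, grouped by hours without Tc). Cenpe and Nek2 were read from other probe sets in the Runx1 column. Stars mark the 4 differences with an adjusted p under 0.05, in the Erg and Runx1 columns, grey marks the 2 genes not measured on the smaller array, and the Nrip1 column is blue in 30 of 32 rows.

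With Erg, an ETS factor of blood and endothelial cells, 2 of the 32 genes rose and none fell (6.25%), where 12% of all probe sets changed. Mki67, which encodes the Ki-67 antigen that coats mitotic chromosomes, was at 10.09, 9.94 and 10.14 in the uninduced clones and at 10.43, 10.45 and 10.48 in the induced ones. The groups did not overlap, and Mki67 rose by 0.40 (SE 0.08, adjusted p 0.0190, higher in 3 of 3 clones), or 1.32-fold. Cdc20, the APC/C activator that the checkpoint inhibits, read 12.47, 12.39 and 12.46 without induction and 12.84, 12.81 and 12.84 with it. These arrays did not overlap either, and the rise of 0.39 (SE 0.08, adjusted p 0.0165) was seen in 3 of 3 clones. The other probe sets of Cdc20 rose as well, by 0.39 and 0.55, with adjusted p of 0.0185 and 0.00461.

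Further genes of the list had sizeable differences with Erg that did not pass. Mad2l1, the checkpoint protein that binds Cdc20, was at 11.31, 11.18 and 11.42 before and at 11.07, 11.06 and 10.95 after induction, a difference of -0.28 without overlap (adjusted p 0.106). Kif23, the kinesin of centralspindlin, had a difference of 0.29 (adjusted p 0.0766) with overlapping arrays, while its second brightest probe set rose by 0.53 (adjusted p 0.00807). At an unadjusted p under 0.05 there were 4 genes higher and 1 lower, against 23.8% of all probe sets. With 1 limma fit of the clone differences of the 19 experiments of the larger array, which gives each probe set 1 spread for all experiments, Kif23 rose and Mad2l1 fell too, so that 4 of 32 passed (12.5%, against 13.3% of all probe sets). The median over the list was 0.02, with 19 of 32 higher, and over all probe sets -0.01 with 48.0% higher.

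With Runx1, a factor of blood stem cells, 2 of 30 genes rose and none fell, where 16.2% of the probe sets changed. Mki67 was at 11.17, 11.11 and 11.07 in uninduced and at 11.45, 11.43 and 11.55 in induced clones, without overlap, a rise of 0.36 (SE 0.07, adjusted p 0.0223). Ccnb2, the B2 cyclin, went from 11.42, 11.56 and 11.57 to 11.81, 11.83 and 11.90, also without overlap, a rise of 0.33 (SE 0.06, adjusted p 0.0223). Each was higher in 3 of 3 clones. Ccnb2 had a difference of 0.05 with Erg (adjusted p 0.759).

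Around the threshold the list went both ways with Runx1. At an unadjusted p under 0.05 there were 8 genes higher and 4 lower, against 32.2% of all probe sets. Those higher included Top2a, the topoisomerase that disentangles sister chromatids (0.24), the checkpoint kinase Bub1b (0.23), Prc1, which bundles microtubules of the central spindle (0.22), and the furrow protein Anln (0.19). Those lower were the spindle pole kinase Aurka (-0.21), Cdc20 (-0.20), Mad2l1 (-0.20) and Ndc80, which ties the kinetochore to microtubules (-0.19). Cdc20 was lower in each clone, at 13.29, 13.23 and 13.25 before and 13.01, 13.13 and 13.02 after induction, and its other probe sets gave -0.20 and -0.23, all 3 with an adjusted p between 0.0892 and 0.0955. The kinetochore kinesin Cenpe had the lowest mean difference (-0.31), which came from clone 3 alone (-1.01, against 0.04 and 0.03 in the other clones). Its probe set here was dim (mean 6.96, where the array median was 7.14) and is not the one used on the larger array. Nek2 was read from different probe sets on the 2 arrays too.

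**Figure D2:**
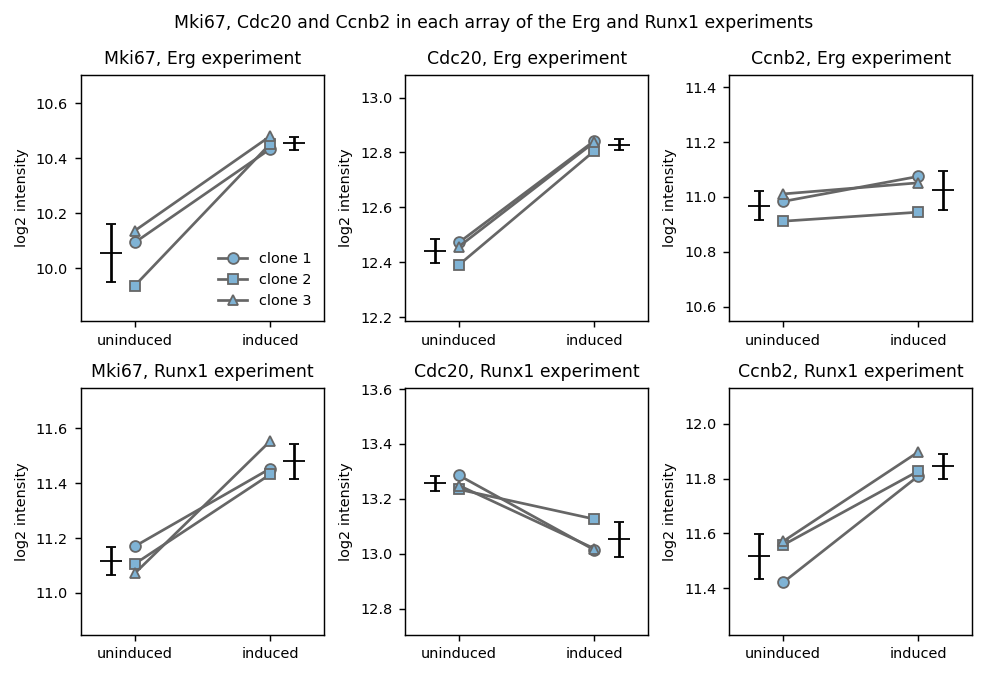
Log2 intensity of Mki67, Cdc20 and Ccnb2 in the uninduced and induced arrays of the Erg and Runx1 experiments, with a line per clone, and the mean and SD (n = 3) beside the points. Cdc20 is higher in the induced Erg clones and lower in the induced Runx1 clones, and the Ccnb2 means differ by 0.33 with Runx1 and by 0.05 with Erg.

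The calls in both experiments did not all hold when a clone was left out. Without 1 clone in turn 0 of the 32 genes were called with Erg, beside 5.34% to 10.9% of all probe sets. With Runx1 0 or 1 of the 30 were called, beside 9.50% to 12.4%. With trend and robust variances there were 4 with Erg and 10 with Runx1, beside 13.5% and 19.5% of all probe sets. Markers of cell state moved in the same arrays. Of the 8 mES markers 5 fell with Erg and 5 with Runx1, and their summed intensity fell from between 52563 and 56122 to between 42655 and 45743 with Erg and from between 71773 and 73909 to between 61599 and 64120 with Runx1. Thy1, of the 6 fibroblast and feeder markers, and Kdr, of 4 measured mesoderm markers, rose by 2.11 and 1.48 with Erg, while the neural markers Nes and Tubb3 changed by 0.35 and -0.36. With Runx1 the trophoblast factor Eomes rose by 1.74, as 1 of 5 of its list, and Nes and Tubb3 by 0.47 and 0.45. The endoderm factor Sox7 (-0.78), Pax6 (-0.71) and Kdr (-0.41) fell with Runx1. Of the 4 measured mesoderm markers, Kdr among them, 2 were higher there, and the median of these markers was 0.09. Their part in the results for the mitosis genes was not tested.

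With Nrip1, a corepressor of nuclear receptors, the list as a whole lay lower. The difference was below 0 for 30 of 32 genes, Kif23 (0.10) and Top2a (0.01) being the other two, and the median was -0.12, the lowest of the 20 experiments. It was -0.10, -0.15 and -0.11 in the 3 clones. Over all probe sets of these arrays the median was 0.00 and 48.99% were higher. No gene of the list passed the test, where 0.135% of all probe sets did, and 4 genes were lower at an unadjusted p under 0.05, against 9.84% of all probe sets.

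The 4 were Nek2 and 3 kinesins. Nek2, a kinase that separates centrosomes, was at 10.25, 10.51 and 10.16 before and at 10.17, 9.96 and 9.74 after induction, a difference of -0.35 (SE 0.12, adjusted p 0.368) in overlapping arrays. The second brightest probe set of Nek2 gave -0.23 and a dim one 0.24. Kif20b gave -0.24, Kif11, the motor that pushes spindle poles apart, -0.23, and Kif2c, which depolymerises microtubules, -0.23, each lower in 3 of 3 clones. The 5 spindle motors and assembly factors had the lowest median of the roles with more than 1 gene, at -0.23, followed by the 4 genes of the chromosomal passenger complex at -0.14. With 1 spread for all experiments Nek2 passed (adjusted p 0.00676) as 1 of 32 (3.125%), where 4.71% of all probe sets did.

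The summed intensity of the 8 mES markers was between 38026 and 45363 in the induced and between 47184 and 50960 in the uninduced Nrip1 clones, and none of the 8 passed the test. The 5 trophoblast markers summed to between 246 and 259 against between 151 and 198, and 3 of the 5 lay under the median of the array. Their part was not tested. The other mitosis genes had a median of -0.11 with Nrip1 (12 of 70 higher), and 39 DNA replication genes one of 0.01 (20 of 39 higher).

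Aire, known as the regulator of tissue antigens in the thymus, gave the highest median of the list, 0.11, with 27 of 32 genes higher. The clone medians were -0.03, 0.12 and 0.17, so clone 1 did not share the shift, and 47.3% of all probe sets were higher. No gene passed in the Aire experiment, where 3.93% of all probe sets did, and 7 were higher at an unadjusted p under 0.05, against 18.3%. Cenpa, the histone of centromeres, was at 11.44, 11.53 and 11.42 before and at 11.62, 11.75 and 11.79 after induction, without overlap, the largest difference in this experiment (0.26, adjusted p 0.101). Prc1 followed with 0.25 (adjusted p 0.131) and Mki67 with 0.23 (adjusted p 0.158). With 1 spread for all experiments Cenpa and Prc1 passed, which is 6.25% of the list against 3.03% of all probe sets. Cenpa passed with Cyber-t too, where 3.22% of all probe sets did. With trend and robust variances Ccnb2 was the third (6.42% of all probe sets). In the same arrays Pax6 (-0.81), Sox7 (-0.70), Cdx2 (-0.40) and Eomes (-0.37) fell, and 0 of 4 neural and 0 of 5 trophoblast markers were higher, while no mES marker passed the test. Their part was not tested.

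With Pdxk, the kinase that makes pyridoxal phosphate, the largest of the 638 differences was seen, that of Bub1. Bub1, the kinase that recruits checkpoint proteins to kinetochores, was at 10.19, 10.75 and 10.36 in uninduced and at 10.82, 11.06 and 11.06 in induced clones. The groups did not overlap, and the difference of 0.55 (SE 0.10) had an adjusted p of 0.0809. Kif23 was at 9.83, 9.75 and 9.79 and then at 10.30, 10.45 and 10.12, again without overlap, a difference of 0.50 (SE 0.10, adjusted p 0.0899), and its second probe set gave 0.48. Ttk, the kinase that starts checkpoint signalling, was higher by 0.34, 0.25 and 0.31 in the clones, without overlap of the arrays, a mean difference of 0.30 (adjusted p 0.157).

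No gene passed in the Pdxk experiment, where 0.264% of all probe sets did, and 8 genes were higher at an unadjusted p under 0.05 against 16% of all probe sets. This count turned on clone 2, since without it 4 genes passed (Ccnb2, Bub1, Kif23 and Cenpa), together with 4995 probe sets in place of 119. Uninduced clone 2 stood above the other uninduced clones in several of these genes, such as Ccnb2 at 11.60 against 11.06 and 11.21. With 1 spread for all experiments Bub1, Kif23, Cenpa, Ttk and Prc1 passed (15.625% of the list, 5.99% of all probe sets).

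With Gabpa, an ETS factor that binds many housekeeping promoters, 6 genes were higher at an unadjusted p under 0.05, against 11.5% of all probe sets. None passed, and nor did any other probe set (0%). The 6 were Mki67 (0.52), the kinetochore proteins Cenpe (0.34) and Cenpf (0.33), Kif20b (0.32), Anln (0.27) and Kif11 (0.27). Mki67 was at 10.01, 10.38 and 9.77 before and at 10.72, 10.44 and 10.54 after induction, without overlap, and the pairs of arrays with 1 clone number differed by 0.71, 0.07 and 0.77. Arrays of 1 clone number deviated little together in this experiment (r of 0.05, -0.18 and 0.17), so that these numbers may not pair the arrays. Cenpe was steadier, from 9.02, 8.90 and 8.85 to 9.33, 9.23 and 9.22, with differences of 0.31, 0.34 and 0.36. Bub1 (-0.12), Cenpa (-0.16) and Prc1 (-0.12) lay on the other side. With 1 spread for all experiments the 6 genes passed (18.75% of the list against 8.69% of all probe sets).

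**Figure D3:**
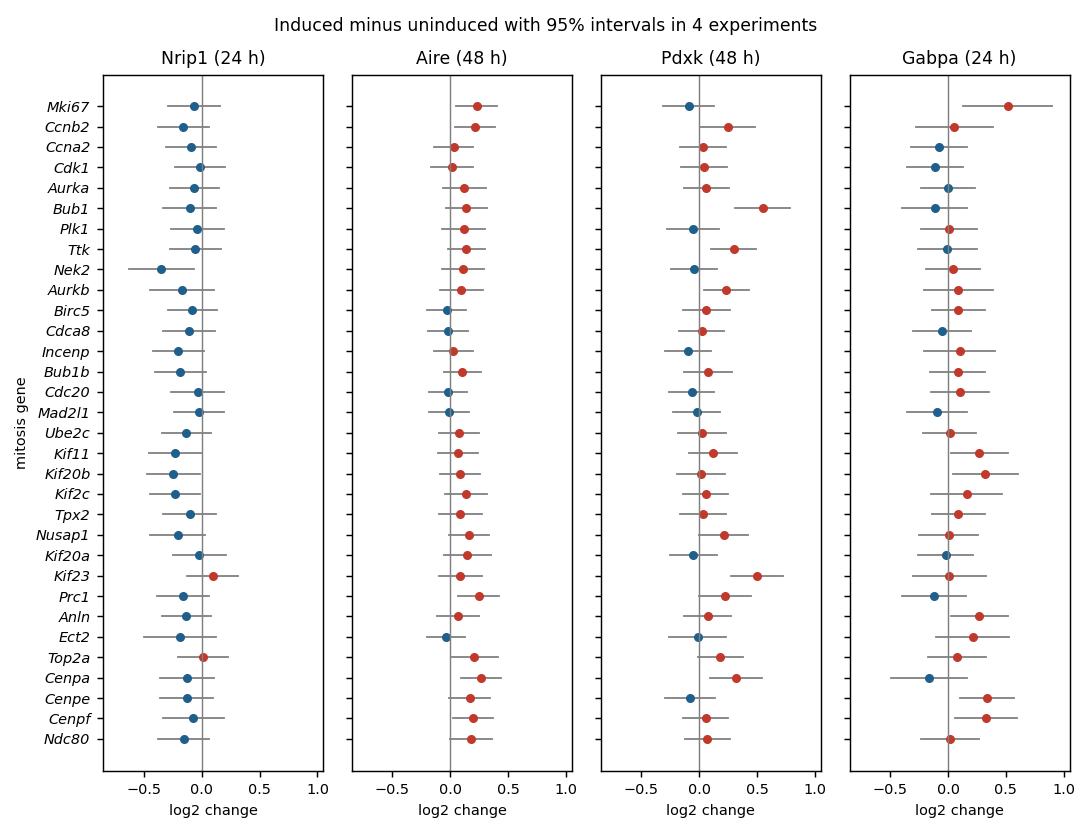
Induced minus uninduced log2 intensity of 32 mitosis genes with 95% confidence intervals (limma, n = 3 clones) in the Nrip1, Aire, Pdxk and Gabpa experiments. Points above 0 are red and points below 0 blue, with 30 of 32 below 0 in the Nrip1 panel, 27 of 32 above 0 in the Aire panel, and Bub1 and Kif23 farthest from 0 in the Pdxk panel.

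Sim2, a basic helix-loop-helix factor, and Ripk4, a kinase of keratinocyte differentiation, were both induced for 39 hours. In the Sim2 experiment Bub1 was at 10.53, 10.43 and 10.70 and then at 10.84, 10.94 and 11.02, a difference of 0.38 (adjusted p 0.152) without overlap. Nusap1, which bundles spindle microtubules (0.28), Prc1 (0.24), Ccnb2 (0.24), Anln (0.24), Ttk (0.23) and Cenpa (0.22) were also higher in 3 of 3 clones, while Plk1 (-0.20), Ccna2 (-0.19) and Nek2 (-0.18) had differences below 0. None passed (0.914% of all probe sets did) and 4 were higher at an unadjusted p under 0.05, against 14.8%. With 1 spread for all experiments 7 of 32 passed (21.875%, against 11.6% of all probe sets). The clone order of this experiment was treated as uncertain, although arrays of 1 clone number deviated together (r of 0.40, 0.37 and 0.13). With clones 1 and 2 crossed 0 of 45100 probe sets passed, in place of 412, and again 0 genes of the list.

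In the Ripk4 experiment Kif23 was at 9.76, 9.83 and 9.98 and then at 10.28, 10.03 and 10.45, a difference of 0.40 (adjusted p 0.585), and Bub1 had 0.31, Cenpa 0.26 and Ttk 0.22. The Kif23 and Ttk arrays did not overlap, and those of Bub1 and Cenpa did. No gene passed (0.0177% of all probe sets did), 4 were higher at an unadjusted p under 0.05 against 7.39%, and Bub1 passed with 1 spread for all experiments (3.125% of the list, 0.424% of all probe sets). The median of the list was 0.08, with 26 of 32 genes higher, against 48.0% of all probe sets. In the Nrip1, Pdxk, Gabpa, Sim2 and Ripk4 experiments the methods' t-test and Cyber-t called 0 genes of the list.

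In the other 12 experiments no mitosis gene passed by limma, by Cyber-t or by the methods' t-test. These include Olig2, where 1.76% of all probe sets changed, Hunk (0.00665%) and Bach1 (0.00222%), while in the other 9 no probe set changed (0%). Of their 384 differences 4 had an unadjusted p under 0.05, with 0 to 2 in an experiment, against 2.24 to 14.8% of all probe sets. The differences ran from -0.16 to 0.22 and the medians from -0.04 with Zfp295 to 0.07 with Dyrk1a. With Dyrk1a, a kinase that controls the exit from the cell cycle, 28 of 32 genes were higher, against 49.3% of all probe sets. Ndc80 was highest (0.18, adjusted p 0.308), and the clone medians were 0.04, 0.08 and 0.07. A second quantile normalization brought that median down to 0.02.

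**Figure D4:**
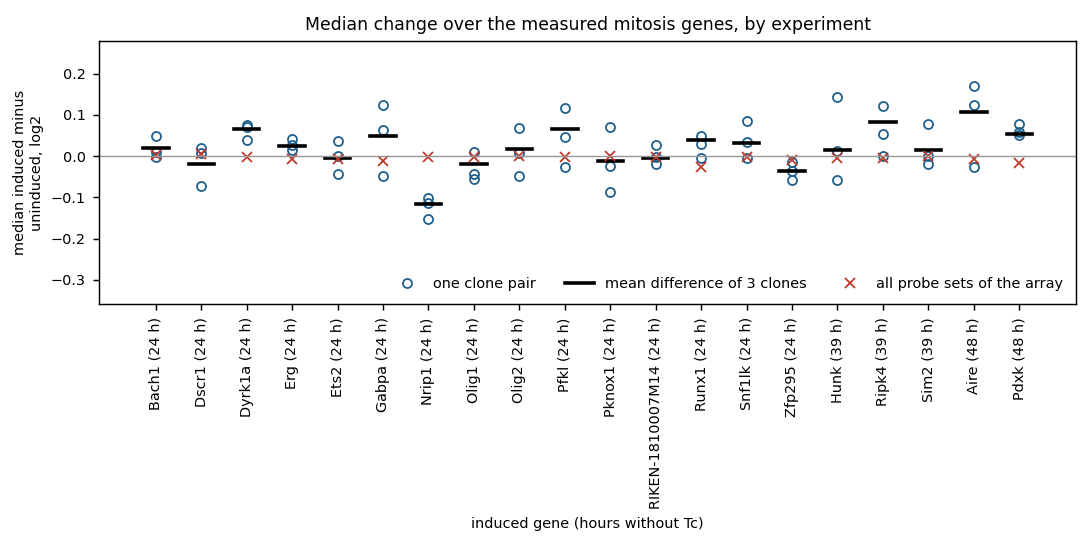
Median induced minus uninduced log2 intensity over the measured mitosis genes in each experiment, for each clone pair (circles), for the mean of the 3 clones (bars) and over all probe sets of the array (crosses). The 3 Nrip1 circles lie between -0.15 and -0.10, below the cross, and the Aire circles spread from -0.03 to 0.17.

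The second question was what the inductions shared. Over the 19 experiments of the larger array, with 1 mean difference each, none of the 32 genes differed from 0 by limma (0 of 32, where 0.0554% of all probe sets did), and 4 had an unadjusted p under 0.05, against 13.4%. The median of the mean changes was 0.03, with 24 of 32 above 0, against 0.00 and 45.4% for all probe sets. The highest mean was that of Kif23, 0.13 (SE 0.03, adjusted p 0.0818). By the chosen probe set it was higher in 19 of 19 experiments, from 0.003 with Sim2 to 0.50 with Pdxk. Its second brightest probe set had a mean of 0.09 but was at -0.20 with Aire, and a dim one (mean level 3.17) had a mean of -0.03. Kif23 was the 1 gene of 28 that passed when Runx1 was added on the probe sets common to both arrays (adjusted p 0.0490). There 81 of 22689 probe sets passed. Over 23 alternatives the adjusted p of Kif23 ran from 0.0490 to 0.354. Next came Bub1 (0.07), Top2a (0.07), Mki67 (0.07), Ttk (0.07) and Cenpa (0.06).

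At the low end stood Mad2l1 (-0.05, higher in 4 of 19 experiments), Nek2 (-0.03), Ccna2, the cyclin of S and G2 phase (-0.03), the passenger scaffold Incenp (-0.02), Cdk1 itself (-0.02) and Cdca8, the passenger protein borealin (-0.01). Cdk1 had the smallest SD over experiments, 0.05, and ran from -0.11 with Gabpa to 0.08 with Ripk4. Without Pknox1, or with its sign turned, again 0 of 32 passed.

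The spread among experiments was larger for some members than for others. By an F test over 57 clone differences, 8 of 32 genes (25%) differed among the experiments, where 16.2% of all probe sets did. They were Bub1 (adjusted p 4.97e-05), Cenpa (0.00850), Ttk (0.0112), Nusap1 (0.0129), Mki67 (0.0149), Cdc20 (0.0235), Prc1 (0.0304) and Anln (0.0456). The experiments differ in induced gene, clones and time, which cannot be told apart here. The SD over experiments was largest for Bub1 (0.18), Mki67 (0.17) and Kif23 (0.13), with a median of 0.10 for the list and 0.12 for all probe sets. Without the Erg experiment 5 genes passed, beside 4562 of 45100 probe sets.

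Among the 19 experiments Mki67 was highest with Gabpa (0.52), Erg (0.40) and Aire (0.23) and lowest with Ripk4 (-0.16). Bub1 was highest with Pdxk (0.55), Sim2 (0.38) and Ripk4 (0.31) and lowest with Gabpa (-0.12). Cdc20 stood out with Erg (0.39), and in the other 18 experiments of the larger array it stayed between -0.07 and 0.11.

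The third question was whether the changes differed by induction time. The 5 experiments at 39 or 48 hours were compared with the 14 at 24 hours, with 1 mean difference per experiment. The later experiments had higher changes in 6 of 32 genes and lower ones in none (18.75%), where 5.73% of all probe sets passed (1585 higher and 997 lower). All probe sets include dim ones and the genes were read from bright ones, so these shares are not of like probe sets. The median over the list was 0.05, with 23 of 32 higher, against -0.01 and 46.2% for all probe sets.

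Bub1 showed the largest difference between the times. Its changes at 24 hours ran from -0.12 over a median of -0.03 to 0.22, and the later ones were 0.15 with Hunk, 0.31 with Ripk4, 0.38 with Sim2, 0.13 with Aire and 0.55 with Pdxk. The means were -0.01 and 0.30, a difference of 0.31 (SE 0.06, adjusted p 0.00404), and the ranges overlapped through Pfkl alone, the 24-hour experiment with the change of 0.22. With Pfkl among the later experiments the difference was 0.32 (adjusted p 0.00077), and without it 0.33 (adjusted p 0.0011). Ccnb2 ran from -0.16 over -0.03 to 0.07 at 24 hours and from 0.072 to 0.25 later, without overlap among these 19 experiments. The difference was 0.20 (SE 0.04, adjusted p 0.00766). Runx1, at 24 hours on the smaller array, is not among them, and Ccnb2 rose by 0.33 there, above all later values. All 5 later experiments were above 0 in Bub1 and in Ccnb2, against 6 of 14 at 24 hours in each.

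The remaining genes that passed had differences close to that of Ccnb2. Prc1 ran from -0.16 to 0.09 at 24 hours and from 0.05 to 0.25 later (difference 0.20, SE 0.04, adjusted p 0.00949). Nusap1 ran from -0.21 to 0.12 and then from 0.09 to 0.28 (0.20, SE 0.05, adjusted p 0.0125). Ttk ran from -0.11 to 0.14 and then from 0.12 to 0.30 (0.18, SE 0.04, adjusted p 0.0159). Cenpa ran from -0.16 to 0.14 and then from 0.01 with Hunk to 0.31 (0.21, SE 0.05, adjusted p 0.0201). Thus 2 of the 6 are checkpoint kinases, 1 is a cyclin, 1 a centromere histone and 2 bundle spindle microtubules.

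Most genes of the list did not pass. The difference was -0.07 for Mki67 (interval -0.24 to 0.11), -0.07 for Cdc20 (-0.18 to 0.04), 0.02 for Cdk1 (-0.06 to 0.09), -0.02 for Ccna2 (-0.12 to 0.08), and -0.03 for Plk1 (-0.13 to 0.07). Beside the kinases Bub1 and Ttk, no checkpoint gene passed (Bub1b 0.07, Mad2l1 0.04), nor did any of the 4 passenger genes.

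**Figure D5:**
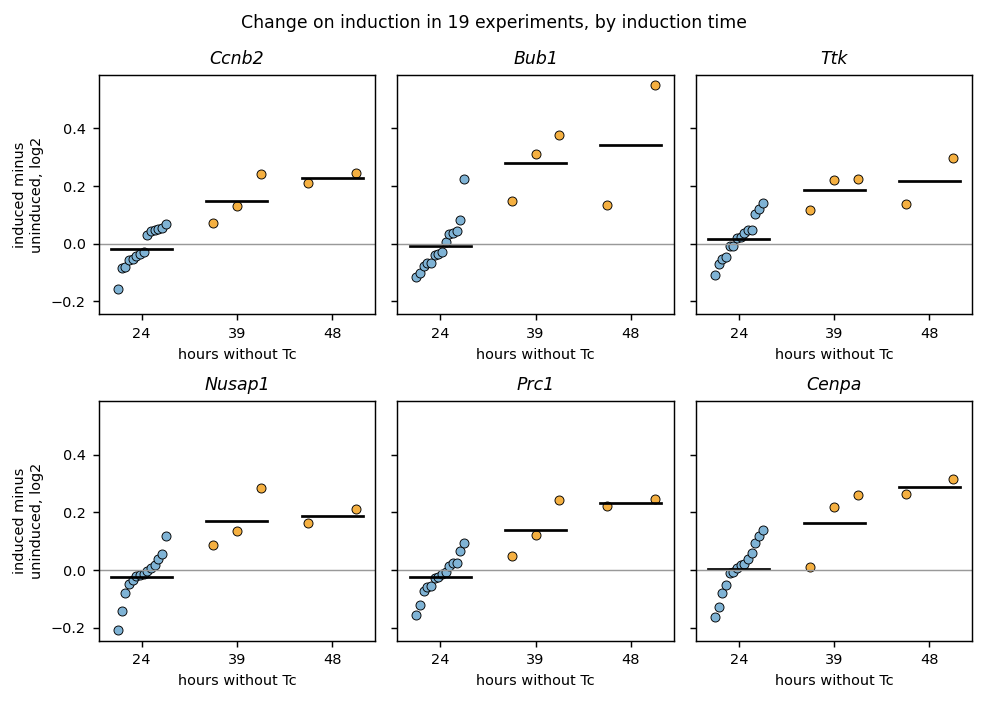
Induced minus uninduced log2 intensity of the 6 mitosis genes past the test of time, 1 point per experiment of the larger array at 24, 39 or 48 hours without Tc (spread sideways by value within a time), with the mean of each time as a line. The 5 later points of Ccnb2 lie above all 14 points at 24 hours, and 1 later Cenpa point, that of Hunk, lies among the 24-hour points.

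Time was fixed by the induced gene, so that time and gene cannot be told apart, and the count leaned on single experiments. Without Sim2, 2 genes passed (Ccnb2 and Bub1) among 821 probe sets in place of 2582, and without Pdxk 3 (Ccnb2, Bub1 and Prc1) among 963. With the 48-hour experiments alone 4 passed, among 734 probe sets, and with the 39-hour ones alone 0, among 144. With Runx1 added at 24 hours, on the probe sets common to both arrays, 5 of 28 genes passed. Ccnb2 was not among these, and 1597 of 22689 probe sets passed. The differences at 39 hours were still 0.29 for Bub1 (adjusted p 0.0535) and between 0.16 and 0.19 for the other 5 genes.

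Other genes of mitosis and of DNA replication were read from lists of 70 and 40 genes. With Erg 3 of the 70 other mitosis genes rose (Kif14 0.44, Foxm1 0.44 and Gtse1 0.33) and 6 fell, led by the midbody protein Cep55 (-0.78), Melk (-0.61) and the condensin subunit Ncapd2 (-0.38), a share near the 12% of all probe sets. With Runx1 Ncapd2 rose (0.51), and Cep55 (-0.80) and Cdca5 (-0.38), which protects cohesion, fell, as 3 of 57 measured, where 16.2% of all probe sets changed. Cep55 thus fell in both experiments and Ncapd2 had opposite directions. With Aire 4 of 70 rose, led by the separase inhibitor Pttg1 (0.46), Spag5 (0.44) and the Cdk1 phosphatase Cdc25b (0.43), and with Olig2 Cenpm fell (-0.45), where 3.93% and 1.76% of all probe sets changed.

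Of the DNA replication genes 5 of 39 fell with Erg and none rose, led by the clamp loaders Rfc3 (-0.72) and Rfc4 (-0.44) and by Orc1 (-0.38), again near the 12% of all probe sets. With Runx1 Pola2 rose (0.29) and Rfc5 fell (-0.31), of 37 measured, where 16.2% of all probe sets changed. No gene of the 2 lists passed in the other 16 experiments. By induction time 12 of the 70 other mitosis genes were higher later and none lower, Pttg1 (0.36), Sgo2a (0.31) and Spag5 (0.27) most, and of the 39 replication genes 4 were higher, with Cdc45 at 0.18, and 1, Orc2, lower (-0.20), beside 5.73% of all probe sets.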

How the data were processed

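Expression was measured on Affymetrix arrays, 114 of Mouse 430_2 (19 experiments) and 6 of Mouse 430A_2 (Runx1). The authors made the deposited log2 intensities by RMA (package affy, version not given in the sources used here), normalizing the arrays of an experiment together, so levels were not compared between experiments, and RMA draws small differences together. Probe sets were named by the platform's annotation, and those of more than 1 gene were left out for members. Each experiment was fitted in limma 3.58.1 (R 4.3.3) over 45101 probe sets (45100 for Sim2, 22690 for Runx1) with clone as a block and Benjamini-Hochberg adjustment at 0.05. Replicate numbers were taken to mark clones. In 54 of 60 pairs the 2 arrays deviated together (r over 0.1, median 0.376), in all 3 pairs of 15 experiments, Sim2 among them. In Bach1, Gabpa, Hunk, Pfkl and RIKEN-1810007M14 not all pairs did, so the clone pairs are uncertain there. Sim2 was also fitted with a crossed pairing. Where the pairs hold, the p-values of an experiment thus measure the spread of the induced minus uninduced difference over 3 clones. Those of the mean and time tests measure the spread between experiments. Mean, time and F tests used the clone differences or their means in 19 experiments. "1 spread for all experiments" is 1 limma fit of all 57 clone differences. Cyber-t weights each variance with that of probe sets of like intensity, and the methods' t-test was Benjamini-Hochberg adjusted too. No arrays were identical. The number of arrays limits the precision. Simulated data had changes planted in a small share of probe sets drawn at random from all levels. Changes of 0.5 were found for 7.5% (Pfkl) to 99% (Zfp295) of these probe sets, and 0.25 for 0% to 25%. Promoters were searched in Python 3.11.15 and figures drawn in matplotlib 3.10.9.

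The members and lists were chosen with earlier results of these data known. Named were up to 6 members past the threshold in each direction per experiment, the 6 highest and 6 lowest mean changes, the 3 largest SDs, those past the time test, and of the other lists up to 3 in each direction per experiment. Members named outside this rule, all those of differences that did not pass included, were chosen after their values were seen.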

Additional observations from a re-analysis of the deposited data

Results flagged for a closer look

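In 6 mitosis genes the change on induction differed between the experiments at 39 or 48 hours and those at 24 hours, by limma over 19 experiments. The later changes were higher by 0.31 for Bub1, 0.21 for Cenpa, 0.20 for Nusap1, 0.20 for Prc1, 0.20 for Ccnb2 and 0.18 for Ttk, with adjusted p from 0.00404 to 0.0201 and 5 of 5 later experiments above 0 in each. The induced genes differ between the times too, so that time and gene cannot be told apart. None of the other probe sets of these genes passed. The second probe set of Prc1 had 0.10 (adjusted p 0.238). Those of the other genes were dim, with 0.12 for Nusap1, 0.18 for Ttk, 0.00 for Bub1, and -0.05 and 0.00 for Cenpa, and Ccnb2 has 1 probe set.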

How the results depend on the processing

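Each difference that passed the test, and the mean change of Kif23, kept its direction under the alternatives. Many alternatives change only the variance or the probe sets tested and leave the difference as it was, so its direction could not change there. It could change only where the values behind it changed, as with a clone left out or a second normalization. The median over the list, where it lay within 0.07 of 0, changed sign in 9 experiments, namely Bach1, Dscr1, Ets2, Hunk, Olig2, Pfkl, Pknox1, RIKEN-1810007M14 and Sim2. Counts of mitosis genes that passed moved also under alternatives that leave the values as they were. In the counts that follow, the share of all probe sets stands in parentheses. With trend and robust variances they were 4 for Erg (13.5%), 10 for Runx1 (19.5%), 3 for Aire (6.42%) and 1 for Pdxk (0.561%). With Cyber-t they were 4 for Runx1 (15.3%) and 1 for Aire (3.22%). The methods' t-test gave 1 for Runx1 (6.36%) and 2 for Erg (0.916%), which were Cdc20 and Tpx2. Without dim probe sets there were 7 for Runx1 (27.6%). With 1 spread for all experiments they were 4 for Erg (13.3%), 2 for Aire (3.03%), 5 for Pdxk (5.99%) and 6 for Gabpa (8.69%). In the same fit they were 1 for Nrip1 (4.71%), 1 for Ripk4 (0.424%) and 7 for Sim2 (11.6%). Leaving out 1 clone in turn gave 0 for Erg (5.34% to 10.9%) and 0 to 1 for Runx1 (9.50% to 12.4%). It gave 0 to 1 for Gabpa (0% to 4.34%), which was Mki67 without clone 2. For Pdxk it gave 0 to 4 (0.00222% to 11.1%). Without clone 3 the Runx1 median was 0.00192 (0.0557 at most). Without the replicate block, which ignores the pairing of clones, the counts were 2 for Erg (8.56%) and 2 for Runx1 (13.7%), and no call of a mitosis gene changed. Medians moved to -0.0806 for Nrip1, 0.0331 for Pdxk and -0.0106 for Pfkl with the mean of all probe sets of a gene, and to 0.0246 for Dyrk1a and 0.0391 for Pdxk after a second quantile normalization. Over experiments, 1 gene passed in the mean of 20 (81 of 22689 probe sets) and 5 in the F test without Erg (4562 of 45100). In the time test 0 passed with the 39-hour experiments alone (144 probe sets). With Runx1 added 5 of 28 passed it, Ccnb2 not among them (1597 of 22689 probe sets). Without 1 experiment in turn 2 to 6 passed that test, beside 821 to 3349 probe sets. Crossing clones 1 and 2 of Sim2 left 0 genes. The time test gave 6 with Pfkl counted as later (3281 probe sets) and 6 with the Pknox1 sign turned (2410 probe sets). The latter and the leaving out of experiments were chosen after seeing the data. The cause was not tested. In simulated data, changes were planted in a small share of probe sets drawn at random, dim ones included. The time test found 18.5% of differences of 0.2 and 63.5% of 0.3 there, so smaller ones were often not detectable in that setting. In the measured data 5.73% of all probe sets passed, and the chosen probe sets of the list were bright, so these shares may not hold for them.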
